A study of Homo sapiens with 4 samples.

Results

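The Hippo pathway genes and YAP targets described here were chosen by symbol: YAP1, WWTR1, TEAD1, TEAD4, LATS1, LATS2, CCN1, CCN2, AMOTL2 and ANKRD1. Of these 10 symbols, 9 matched a row of the table used here, out of 13743 genes in all, and ANKRD1 was not analysed here. Cap analysis of gene expression (CAGE), which counts the capped 5' ends of transcripts, had been run on total RNA of UM-UC-3, an established cell line from human bladder cancer. Cisplatin-resistant UM-UC-3 cells (2 samples), grown in DMEM with serum and 5 µM cisplatin, a DNA-crosslinking drug, were compared with wild type UM-UC-3 cells (2 samples). For wild type cells the sources used here give no medium, and effects of resistance and of the drug being present cannot be told apart. The labels do not say whether the resistant cells are 1 clone, nor whether samples of a group are separate cultures; p-values therefore reflect the spread of these samples alone, possibly technical.

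The Hippo pathway is a kinase cascade that restrains growth. The kinases LATS1 and LATS2 phosphorylate the coactivators YAP (gene YAP1) and TAZ (gene WWTR1), which are then held in the cytoplasm or degraded; unphosphorylated YAP and TAZ enter the nucleus and switch on genes through the DNA-binding TEAD factors. CCN1 (formerly CYR61) and CCN2 (formerly CTGF), which encode secreted matricellular proteins, are widely used readouts of YAP and TAZ, and AMOTL2 and LATS2 are target genes whose products act back on the pathway. Transcript 5' ends report RNA only and not the phosphorylation or location of YAP and TAZ.

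Promoter sequences are shown because CAGE measures output at transcript starts and because TEAD factors bind a short DNA core. RefSeq windows (GRCh38.p14) of 300 bases, 250 before to 50 after the annotated start, matched 7 of the 10 symbols, and TEAD1, TEAD4 and CCN1 had no entry. The core GGAATG was searched on both strands (CATTCC on the other); the motif was found in 14.0% of the 35116 windows of the table. The CCN2 window held 3 copies, which start 169, 104 and 95 bases before the annotated start, and 0.128% of all windows held 3 or more. The YAP1 window held 1 copy, 162 bases before the start, 1 of the 2 AMOTL2 windows held 1 copy on the other strand, 69 bases before the start, and the LATS2 window held 1 copy beginning at base 10 of the transcript. The ANKRD1 window held 2 copies, 220 and 128 bases before the start. The windows of WWTR1 and LATS1 held none of these letters. A match is a description of the letters and not a measured site. The 250 bases before the start are printed for the member with the largest change (CCN2, chr6:131951373-131951622, minus strand), for a feedback target (AMOTL2, chr3:134374448-134374697, minus strand) and for YAP1 (chr11:102110197-102110446, plus strand), with the core in capitals on either strand.
CCN2: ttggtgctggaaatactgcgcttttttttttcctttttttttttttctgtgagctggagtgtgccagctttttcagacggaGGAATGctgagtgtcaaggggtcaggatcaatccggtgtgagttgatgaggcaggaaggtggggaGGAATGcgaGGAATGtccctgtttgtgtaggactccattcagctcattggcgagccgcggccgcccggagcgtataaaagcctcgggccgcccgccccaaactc
AMOTL2: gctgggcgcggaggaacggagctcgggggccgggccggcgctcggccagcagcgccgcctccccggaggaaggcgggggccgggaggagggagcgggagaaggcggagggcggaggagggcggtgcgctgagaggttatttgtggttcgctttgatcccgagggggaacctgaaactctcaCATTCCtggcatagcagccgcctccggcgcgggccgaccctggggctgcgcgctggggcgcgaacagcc
YAP1: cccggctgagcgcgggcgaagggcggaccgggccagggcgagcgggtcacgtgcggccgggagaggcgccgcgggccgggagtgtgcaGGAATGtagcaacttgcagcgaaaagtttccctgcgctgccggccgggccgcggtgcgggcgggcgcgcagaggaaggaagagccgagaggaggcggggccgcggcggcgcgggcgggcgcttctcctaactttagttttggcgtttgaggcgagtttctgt

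Values are CPM, a gene's reads scaled to a common library total. The 12587 genes averaging 1 CPM or more were tested, and all 9 members were among them. The columns stood for between 17800742 and 21189212 reads, taking the CPM step of each as 1 read. Of the 9 members 8 were higher in resistant cells, 0 were lower and 1, CCN1, did not pass (limma, adjusted p under 0.05 over all tested genes). Of all tested genes 33.5% were called higher and 21.6% lower. In 9 of 9 members the lower resistant sample exceeded the higher wild type sample, as in 46.1% of all tested genes. The median log2 fold change of the members was 0.47, against 0.09 for all tested genes. Fold changes are differences of log2(CPM + 1), so that changes of genes with low CPM come out too small. With all columns rescaled by median ratios 8 members were called higher and 0 lower, where 27.7% of all genes were called higher and 27.7% lower; under quantile normalization 7 were called higher and 0 lower, where 27.9% and 27.1% of all genes were. The called genes split into 4221 higher and 2724 lower on the deposited scale and into 3486 higher and 3484 lower under median ratios.

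**Figure D1:**
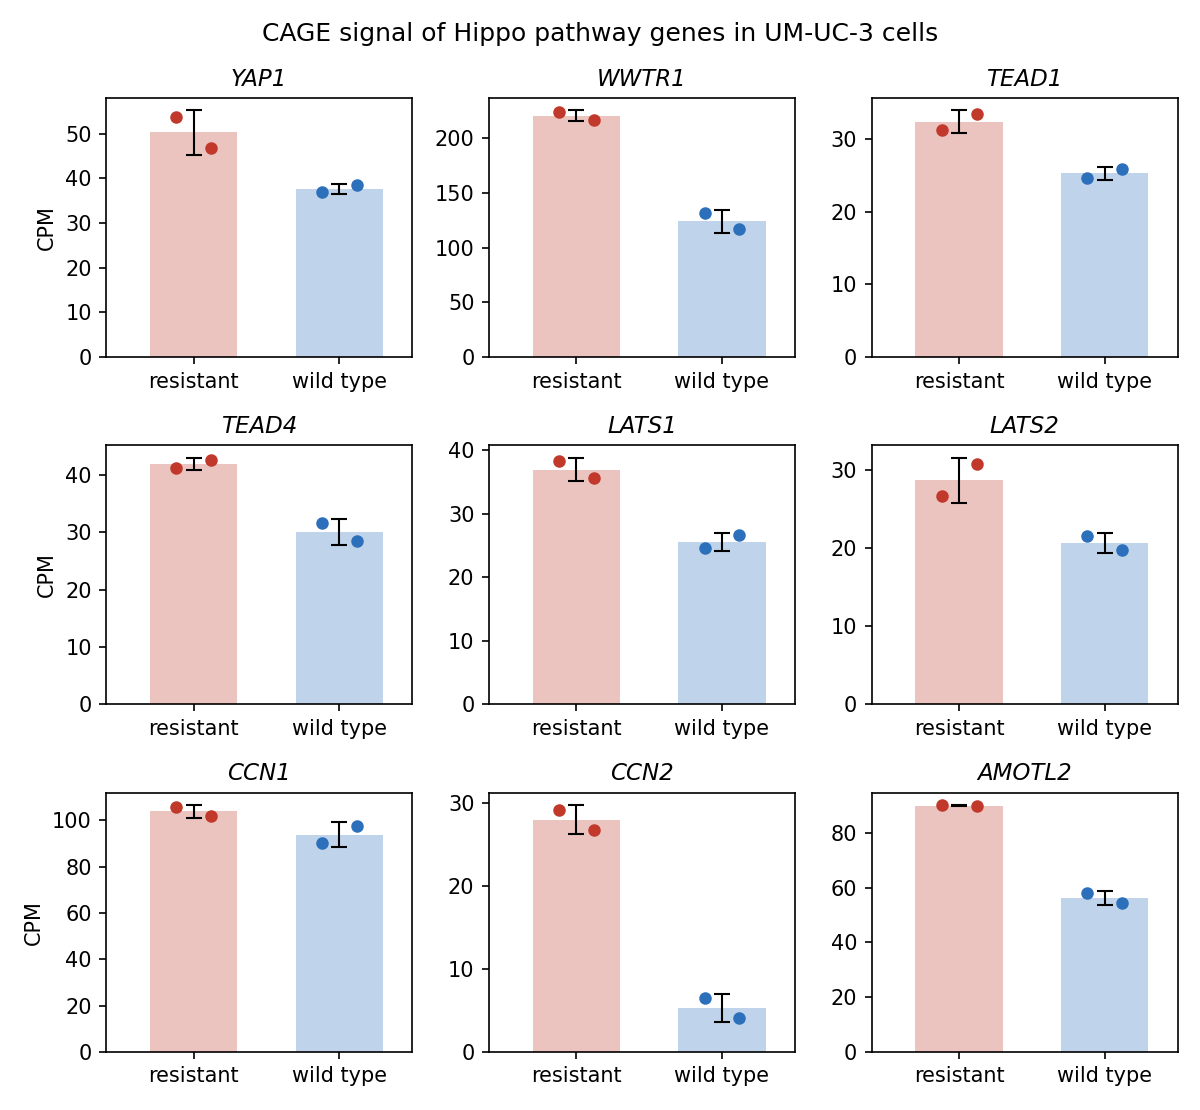
CPM of the 9 members in cisplatin-resistant (left, red) and wild type (right, blue) UM-UC-3 cells; points are samples, bars the mean and error bars the SD (n = 2). CCN2 stands at 29.2 and 26.7 CPM in resistant samples, against 6.52 and 4.13 CPM in wild type samples, while the CCN1 bars are nearly level.

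Among the kinases, LATS1 (ENSG00000131023.13) read 38.2 and 35.6 CPM in resistant samples, against 24.6 and 26.6 CPM in wild type samples. Its groups did not overlap (limma, log2 fold change 0.51, SE 0.09, adjusted p = 0.0015). LATS2 (ENSG00000150457.9), the paralog that is itself a YAP target, read 26.7 and 30.7 CPM in resistant samples, against 21.6 and 19.8 CPM in wild type samples. Resistant replicate 2 was the higher of its pair, and the groups did not overlap (limma, log2 fold change 0.45, SE 0.10, adjusted p = 0.00602). The call for LATS2 was lost without resistant replicate 2 (log2 fold change 0.35, adjusted p = 0.0859, limma). Within a sample, LATS2 over LATS1 was 0.697 and 0.863 in resistant cells and 0.879 and 0.743 in wild type cells, so the ranges of the ratio overlapped.

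The coactivators moved by different amounts. WWTR1 (ENSG00000018408.15), which encodes TAZ, read 224 and 217 CPM in resistant samples, against 132 and 117 CPM in wild type samples. The means were 221 ± 4.98 and 124 ± 10.5 CPM (SD, n = 2 each), a ratio of 1.78 (limma, log2 fold change 0.83, SE 0.08, adjusted p = 6.02e-05). YAP1 (ENSG00000137693.14) read 53.8 and 46.7 CPM in resistant samples, against 36.9 and 38.4 CPM in wild type samples. Resistant replicate 1 was the higher of its pair, and the ratio of the means was 1.33 (limma, log2 fold change 0.40, SE 0.09, adjusted p = 0.00539). Without resistant replicate 1 the YAP1 call was lost (log2 fold change 0.30, adjusted p = 0.0847, limma), whereas WWTR1 stayed past the threshold in 13 of 13 alternatives. The quotient of WWTR1 over YAP1 within a sample was 4.17 and 4.65 in resistant cells, against 3.57 and 3.04 in wild type cells, a log2 difference of 0.42. Both resistant quotients lay above both wild type quotients, but with 2 samples a group an exact two-sided permutation test cannot go below p = 0.333. WWTR1 overlaps WWTR1-AS1 on the opposite strand, which read 1.89 and 2.25 CPM in resistant samples, against 1.43 and 1.76 CPM in wild type samples. Whether counting used strand is not stated, so reads of this pair may be shared.

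Both TEAD factors, the DNA-binding partners of YAP and TAZ, rose. TEAD4 (ENSG00000197905.9) read 41.2 and 42.6 CPM in resistant samples, against 31.6 and 28.4 CPM in wild type samples, a ratio of 1.40 (limma, log2 fold change 0.47, SE 0.09, adjusted p = 0.00218). TEAD1 (ENSG00000187079.19) read 31.2 and 33.5 CPM in resistant samples, against 24.6 and 25.9 CPM in wild type samples, a ratio of 1.28 (limma, log2 fold change 0.35, SE 0.09, adjusted p = 0.00952). The TEAD1 call was lost in 3 of 13 alternatives. These were leaving out resistant replicate 1 (log2 fold change 0.39), leaving out resistant replicate 2 (0.30) and quantile normalization (limma, 0.21, adjusted p = 0.07645). The quotient of TEAD4 over TEAD1 was 1.32 and 1.27 in resistant samples, against 1.29 and 1.10 in wild type samples, with overlapping ranges. Of the other TEAD paralogs and the VGLL cofactors, which compete with or assist YAP on TEAD, 2 of 6 symbols matched. TEAD2 read 11.1 and 9.89 CPM in resistant samples, against 12.4 and 13.2 CPM in wild type samples, and did not pass on the deposited scale (log2 fold change -0.27, adjusted p = 0.0740), but was called lower under median-ratio scaling (adjusted p = 0.0231) and quantile normalization (adjusted p = 0.0211, all limma). VGLL4, a TEAD-binding repressor, read 26.6 and 24.8 CPM in resistant samples, against 22.32 and 21.97 CPM in wild type samples, and did not pass (log2 fold change 0.21, limma, adjusted p = 0.0806).

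The target genes held both the largest and the smallest change among the members. CCN2 (ENSG00000118523.6) read 29.2 and 26.7 CPM in resistant samples, against 6.52 and 4.13 CPM in wild type samples. The mean rose to 28.0 ± 1.72 CPM in resistant cells, against 5.33 ± 1.69 CPM in wild type cells (SD, n = 2 each), a ratio of 5.25 (limma, log2 fold change 2.22, SE 0.17, adjusted p = 2.66e-05). By reads, 1094 in resistant and 194 in wild type samples gave a ratio of 5.26 with an exact (Clopper-Pearson) 95% interval of 4.51 to 6.16, which covers counting error only. CCN2 stood 45th by log2 fold change among the tested genes, counted from the largest increase, and 0.350% of them lay above it. The rank holds for the log2(CPM + 1) scale, on which changes of genes with low CPM come out too small.

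CCN1 (ENSG00000142871.18) read 106 and 102 CPM in resistant samples, against 90.0 and 97.6 CPM in wild type samples. The groups did not overlap, yet the change did not pass (limma, log2 fold change 0.14, SE 0.07, adjusted p = 0.118); it passed in 1 of 13 alternatives, without wild type replicate 2 (log2 fold change 0.20, limma, adjusted p = 0.0307). Counting error alone put the read ratio of 1.11 between 1.06 and 1.16 (exact 95% interval). The quotient of CCN2 over CCN1 was 0.276 and 0.262 in resistant samples, against 0.0724 and 0.0423 in wild type samples, a log2 difference of 2.28 between groups that did not overlap.

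AMOTL2 (ENSG00000114019.14), an angiomotin-like scaffold that binds YAP and promotes LATS2 activity, read 90.1 and 89.9 CPM in resistant samples, against 58.0 and 54.6 CPM in wild type samples. The ratio was 1.60 (limma, log2 fold change 0.67, SE 0.07, adjusted p = 0.000123), and AMOTL2 stayed past the threshold in 13 of 13 alternatives. Its relative AMOTL1 read 15.3 and 12.8 CPM in resistant samples, against 17.2 and 15.2 CPM in wild type samples, and did not pass (log2 fold change -0.19, limma, adjusted p = 0.202), but was called lower under quantile normalization (limma, adjusted p = 0.0368); AMOTL1 was named after its values were seen. CCN6, a further CCN family gene, lay under the filter at 0.47 and 0.22 CPM in resistant samples, against 1.48 and 1.65 CPM in wild type samples.

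**Figure D2:**
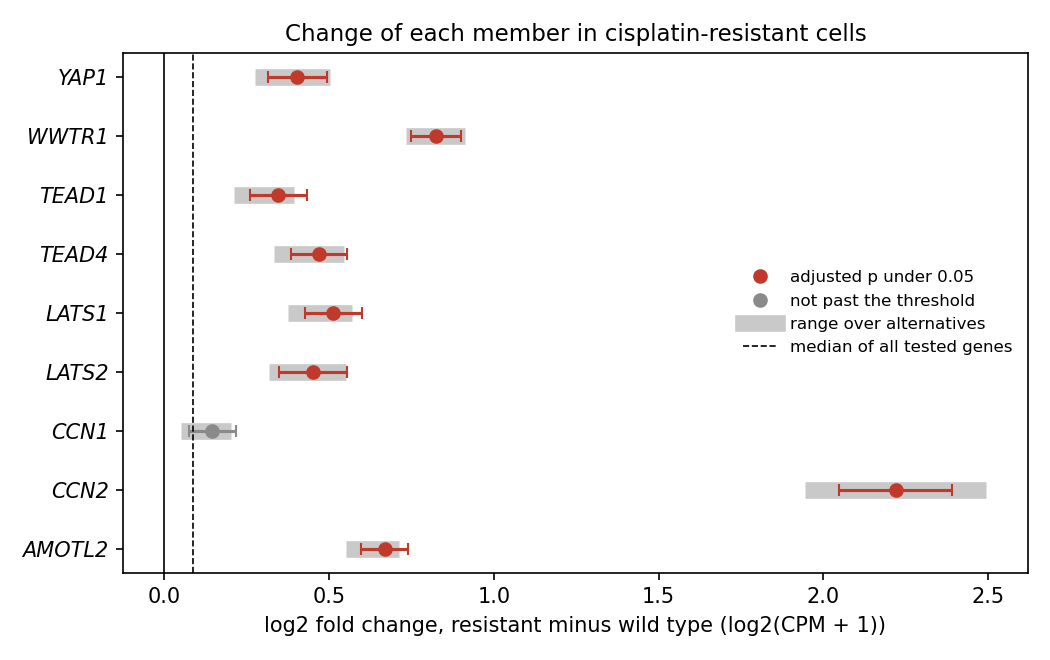
Log2 fold change of each member, resistant minus wild type, on the log2(CPM + 1) scale; points are the limma estimates, error bars the standard error and grey bars the range over 13 alternative settings. The grey bar of CCN2 runs from 1.94 to 2.50 and that of CCN1 from 0.05 to 0.20, and all 9 points lie right of the dashed median of all tested genes (0.09).

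Genes outside the members, taken from lists of genes by role, did not move one way. Besides pathway genes and YAP/TAZ targets, the lists held actin genes and targets of the transcription factor SRF, described below. Of these actin and SRF genes 14 were tested, and 4 rose and 8 fell. Each list gene counted once, 81 were tested, of which 29 rose, 25 fell and 27 did not pass (limma, adjusted p under 0.05), where 33.5% of all tested genes rose and 21.6% fell. The median log2 fold change of these 81 genes was 0.01. The 54 calls became fewer when either resistant sample was left out, as did the calls over all tested genes. Counts of single lists in such fits, given below, stand against that general loss of calls.

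Of the kinases, scaffolds and activators upstream of LATS1 and LATS2, 7 of 19 rose and 5 fell, at a median log2 fold change of 0.22. Across all tested genes 33.5% rose and 21.6% fell. The MAP4K kinases, which phosphorylate LATS in parallel with MST1 and MST2, went in opposite directions. MAP4K4 read 40.4 and 37.4 CPM in resistant samples, against 102 and 114 CPM in wild type samples (limma, log2 fold change -1.45, SE 0.08, adjusted p = 6.01e-06). MAP4K5 read 61.2 and 60.5 CPM in resistant samples, against 33.3 and 29.9 CPM in wild type samples (limma, log2 fold change 0.92, SE 0.08, adjusted p = 5.26e-05). MAP4K3 and TAOK2, of the TAO kinases that activate MST1 and MST2, rose 1.76 and 1.72 times. STK3, which encodes MST2, fell to 20.53 and 17.30 CPM in resistant samples, against 31.31 and 27.97 CPM in wild type samples (limma, log2 fold change -0.62, SE 0.11, adjusted p = 0.00177). STK4, which encodes MST1 and was named after its values were seen, read 89.8 and 95.1 CPM in resistant samples, against 77.0 and 71.5 CPM in wild type samples (limma, log2 fold change 0.31, adjusted p = 0.00715), and missed the threshold without resistant replicate 1 (adjusted p = 0.0501, limma) or without resistant replicate 2 (adjusted p = 0.102, limma). The quotient of STK4 over STK3 was 4.37 and 5.49 in resistant samples, against 2.46 and 2.56 in wild type samples. The related kinase STK38 rose 1.44 times, and FRMD6, a FERM-domain activator, and MAP4K2 fell by 0.38 and 0.47 on the log2 scale. These calls did not survive leaving out resistant replicate 1 for STK38 (adjusted p = 0.0569), resistant replicate 2 for FRMD6 (adjusted p = 0.0726), or wild type replicate 2, resistant replicate 1 or resistant replicate 2 for MAP4K2 (adjusted p = 0.103, 0.0705 and 0.135, all limma). The calls of this list fell to 7 without resistant replicate 1, to 6 without resistant replicate 2 and to 8 without wild type replicate 2.

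STRIPAK, a phosphatase complex that dephosphorylates MST1 and MST2, and LIM-domain proteins that bind LATS formed a single list. In this list 7 of 12 tested genes rose and 1 fell, at a median log2 fold change of 0.44. The shares of all tested genes were 33.5% higher and 21.6% lower. The phosphatase catalytic subunit PPP2CA read 191 and 181 CPM in resistant samples, against 133 and 117 CPM in wild type samples (limma, log2 fold change 0.57, SE 0.08, adjusted p = 0.000469). SIKE1, STRN4 and MOB4, components of the complex, rose 1.46, 1.44 and 1.41 times. All 7 genes that rose belong to STRIPAK. The tested LIM-domain genes AJUBA and LIMD1, named after their values were seen, did not pass (limma, log2 fold changes 0.03 and -0.06). The scaffold subunit PPP2R1A fell by 0.41 on the log2 scale. It was not called without resistant replicate 1 (log2 fold change -0.46) or 2 (-0.37). PPP2CA and PPP2R1A also serve other phosphatase complexes.

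Of 12 genes that bind, retain or degrade YAP and TAZ, 3 rose and 3 fell, at a median of -0.04. YWHAZ, a 14-3-3 protein of the family that holds phosphorylated YAP in the cytoplasm, fell to 453 and 427 CPM in resistant samples, against 959 and 845 CPM in wild type samples (limma, log2 fold change -1.03, SE 0.08, adjusted p = 2.68e-05). FBXW11, a substrate receptor of the ubiquitin ligase that degrades YAP and TAZ, fell by 0.62 on the log2 scale (limma, adjusted p = 0.000324), while its paralog BTRC rose 1.24 times. The 14-3-3 genes YWHAH and YWHAG rose 1.20 and 1.14 times and YWHAQ fell by 0.26. BTRC, YWHAH, YWHAG and YWHAQ were not called without resistant replicate 1 or without resistant replicate 2. In these fits the log2 fold changes were 0.25 and 0.35 for BTRC and 0.28 and 0.25 for YWHAH. They were 0.20 and 0.17 for YWHAG and -0.25 and -0.27 for YWHAQ. BTRC was not called without wild type replicate 1 either (log2 fold change 0.23). BTRC, YWHAH and YWHAG were not called under median-ratio scaling either (limma, adjusted p = 0.1059, 0.1084 and 0.2888). The list had 3 calls in either of these fits without a resistant sample. STK3 and YWHAZ both lie on chromosome 8, and of the 11 tested genes between them 7 fell and 0 rose, at a median log2 fold change of -0.51. Of all tested genes 33.5% rose and 21.6% fell. The stretch was chosen after the values of STK3 and YWHAZ were seen.

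Of the junction and polarity genes, 1 of 9 tested genes rose and 5 fell, at a median of -0.31. The corresponding shares over all tested genes were 33.5% and 21.6%. PATJ, a scaffold of the Crumbs complex, read 1.27 and 1.12 CPM in resistant samples, against 4.17 and 4.08 CPM in wild type samples (limma, log2 fold change -1.22, SE 0.14, adjusted p = 0.00019). FAT4, an atypical cadherin, and LLGL1, a basolateral polarity protein, fell by 0.77 and 0.67 on the log2 scale, and CTNNA1, which encodes the junction protein alpha-catenin, by 0.31. The CTNNA1 call was lost without resistant replicate 2 (limma, adjusted p = 0.0878), where the list had 4 calls. MPP5, another Crumbs complex scaffold, was the gene that rose, 1.41 times. Cell-type markers were checked beside these genes: of 17 urothelial and epithelial markers 4 matched (KRT7, KRT8, KRT18 and TP63), with a summed level of 144 and 139 CPM in resistant samples, against 408 and 403 CPM in wild type samples. TP63 was listed at 0 in both resistant samples, against 0.49 and 0.99 CPM in wild type samples, and KRT18 read 90.5 and 85.5 CPM in resistant samples, against 306 and 309 CPM in wild type samples. KRT8 read 43.5 and 43.2 CPM in resistant samples, against 95.3 and 87.5 CPM in wild type samples. KRT7 went the other way, at 10.05 and 10.0 CPM in resistant samples, against 5.32 and 5.56 CPM in wild type samples (limma, log2 fold change 0.78, SE 0.12, adjusted p = 0.000734). The mesenchymal marker VIM read 1432 and 1343 CPM in resistant samples, against 1365 and 1336 CPM in wild type samples, and did not pass. The part of these markers in the result was not tested, and in bulk samples fewer cells of a type and less RNA per cell cannot be told apart.

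Targets outside the members were mixed in direction. Of the other genes of a published YAP/TAZ target signature, 15 matched and 14 passed the filter. Of these 14, 7 rose and 3 fell, at a median log2 fold change of 0.10. All tested genes had a median of 0.09, with 33.5% called higher and 21.6% called lower. CRIM1, a transmembrane protein that binds growth factors, read 57.1 and 61.1 CPM in resistant samples, against 23.6 and 25.8 CPM in wild type samples (limma, log2 fold change 1.23, SE 0.08, adjusted p = 1.59e-05). IGFBP3, which binds insulin-like growth factors, fell to 4.86 and 3.37 CPM in resistant samples, against 14.9 and 16.3 CPM in wild type samples (limma, log2 fold change -1.71, SE 0.16, adjusted p = 5.91e-05). NT5E, the ectonucleotidase CD73, fell to 153 and 156 CPM in resistant samples, against 247 and 261 CPM in wild type samples (limma, log2 fold change -0.72, adjusted p = 5.6e-05). DOCK5, a guanine nucleotide exchange factor, F3, which encodes tissue factor, and the receptor tyrosine kinase AXL rose 1.53, 1.59 and 1.22 times. Their log2 fold changes were 0.59, 0.53 and 0.29, and the kinase NUAK2 fell by 0.55 on the log2 scale. Of these, F3 was not called without resistant replicate 2 (adjusted p = 0.0699), AXL without resistant replicate 1 (0.122) or 2 (0.0981) and NUAK2 without wild type replicate 1 (0.0818) or resistant replicate 2 (0.131, all limma). The calls of this list fell to 6 without resistant replicate 1 and to 4 without resistant replicate 2.

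CCN1 and CCN2 are also known targets of SRF with its MRTF coactivators, so actin and SRF-MRTF target genes were listed. Of 14 tested genes 4 rose and 8 fell, at a median of -0.31, where 33.5% of all tested genes rose and 21.6% fell. The 14 include SRF, MRTFA and MRTFB themselves, beside the target genes. SRF itself rose 1.95 times, to 12.6 and 11.5 CPM in resistant samples, against 5.81 and 6.50 CPM in wild type samples (limma, adjusted p = 0.000509). TPM1 rose 1.24 times. ACTA2 rose 2.01 times at a low level (log2 fold change 0.55). It read 1.51 and 1.91 CPM in resistant samples, against 0.82 and 0.88 CPM in wild type samples. The coactivator gene MRTFB rose 1.34 times. The other coactivator, MRTFA, named after its values were seen, read 9.86 and 10.06 CPM in resistant samples, against 15.2 and 11.6 CPM in wild type samples, and fell by 0.38 on the log2 scale (limma, adjusted p = 0.044). The MRTFA call was lost in 5 of 13 alternatives, among them leaving out wild type replicate 1 (limma, log2 fold change -0.20, adjusted p = 0.201), resistant replicate 1 (limma, adjusted p = 0.182) or resistant replicate 2 (limma, adjusted p = 0.157). The LIM-domain gene FHL1 fell to 2.03 and 1.57 CPM in resistant samples, against 22.5 and 22.6 CPM in wild type samples (limma, log2 fold change -3.08, SE 0.13, adjusted p = 1.66e-06). FHL2 and the actin crosslinker FLNA fell by 0.98 and 0.86 on the log2 scale, and zyxin (ZYX) by 0.39. Without resistant replicate 1, MRTFB (adjusted p = 0.0575) and TPM1 (0.0845) were not called, and without resistant replicate 2, TPM1 (0.0631), ACTA2 (0.108) and ZYX (0.0659) were not; ACTA2 was not called without wild type replicate 1 either (0.0523, all limma). The list had 7 calls without resistant replicate 1 and 5 without resistant replicate 2.

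**Figure D3:**
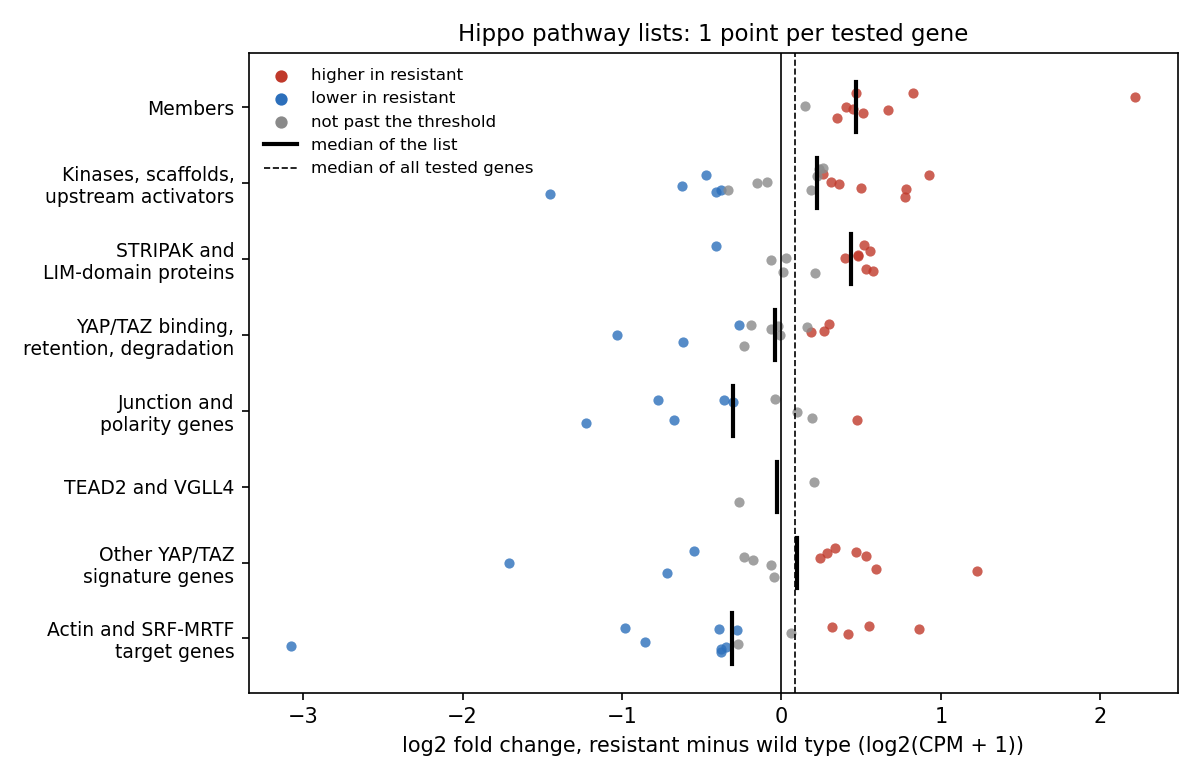
Log2 fold change, resistant minus wild type (log2(CPM + 1)), of every tested gene in the members and in 7 lists; red, blue and grey points were called higher, called lower or not called, black ticks mark list medians and the dashed line the median of all tested genes (0.09). The members lie to the right, the STRIPAK list has its median at 0.44, and the junction and actin lists have theirs at -0.31.

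Position on the chromosome was compared by taking the 3 nearest tested genes on each side of a member. The nearest tested genes can lie far away. Between the lower annotated coordinates of the genes, whatever their strand, RPS12 lay 866 kb from CCN2. PPP2R3A, which fell, lay 1610 kb from AMOTL2. Of 54 neighbours 25 rose, 6 fell and 23 did not pass (limma, adjusted p under 0.05), at a median log2 fold change of 0.19, where 33.5% of all tested genes rose and 21.6% fell. CCN2 had 5 of 6 neighbours that rose and 0 that fell, at a median of 0.83. The nearest on one side, ENPP1, an ectonucleotide pyrophosphatase, read 6.37 and 5.22 CPM in resistant samples, against 0.66 and 0.66 CPM in wild type samples (limma, log2 fold change 2.03, SE 0.15, adjusted p = 2.14e-05). The ratio of its means was 8.78, larger than the 5.25 of CCN2, with the wild type level of ENPP1 being low. On the log2(CPM + 1) scale ENPP1 lay below CCN2. With 0.5 or 0.1 added to CPM in place of 1, ENPP1 had the larger log2 fold change. The Mediator subunit MED23, the anchoring protein AKAP7, SLC18B1 and the ribosomal protein gene RPS12 rose by log2 fold changes of 0.77, 0.90, 0.93 and 0.47, and the syntaxin gene STX7, next to CCN2 on the other side, did not pass (log2 fold change 0.18, limma, adjusted p = 0.26). RPS12 was not called without resistant replicate 1 (log2 fold change 0.49) or 2 (0.44). STX7 was called without wild type replicate 1 (log2 fold change 0.34).

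The neighbours of TEAD4 and LATS2 also rose in most cases, 5 of 6 and 4 of 6 with 0 falling, as did 4 of 6 next to AMOTL2 with 1 falling. Of 6 neighbours each, 2 rose and 0 fell for WWTR1, 1 rose and 1 fell for LATS1, and 3 rose and 0 fell for CCN1. As above, 33.5% of all tested genes rose and 21.6% fell. Next to TEAD4, TSPAN9 rose to 28.7 and 29.8 CPM in resistant samples, against 11.3 and 9.42 CPM in wild type samples, and FOXM1, a cell cycle transcription factor, rose 1.82 times. Next to AMOTL2, ANAPC13, a subunit of the anaphase-promoting complex, and the centrosome gene CEP63 rose 1.88 and 1.74 times. Most neighbours of YAP1 and TEAD1 were not called higher. BIRC3, the first tested gene after YAP1 and a member of the inhibitor of apoptosis family, fell to 20.3 and 18.8 CPM in resistant samples, against 43.0 and 42.4 CPM in wild type samples (limma, log2 fold change -1.09, adjusted p = 2.76e-05). Of the 6 neighbours of YAP1, 1 rose (CEP126, limma, log2 fold change 0.49, adjusted p = 0.0122), 1 fell and 4 did not pass, and CEP126 was not called without resistant replicate 1 (limma, adjusted p = 0.0853) or 2 (limma, adjusted p = 0.0537). Of the 6 neighbours of TEAD1, 3 fell and 0 rose, among them MICAL2, a monooxygenase that oxidises actin, at 8.12 and 8.37 CPM in resistant samples, against 34.9 and 35.6 CPM in wild type samples (limma, adjusted p = 2.55e-06), the Wnt inhibitor gene DKK3 and the clock gene ARNTL. Copy number was not measured, and its part in the result was not tested.

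**Figure D4:**
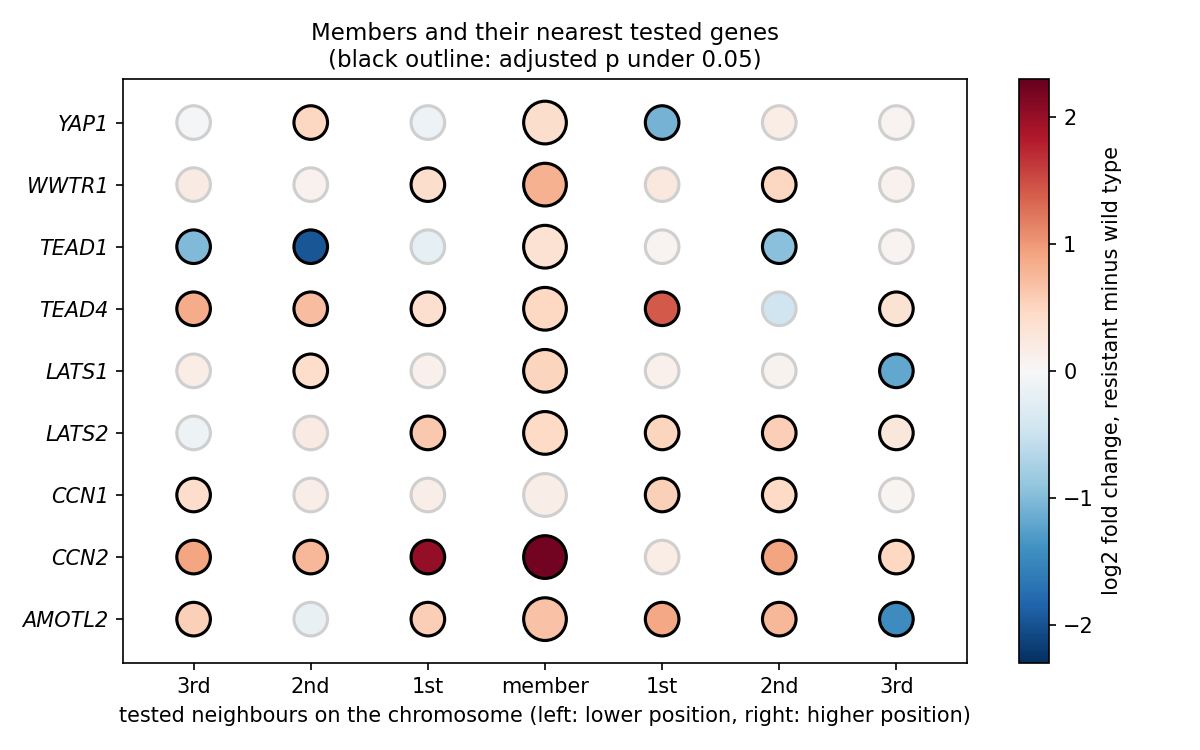
Log2 fold change, resistant minus wild type, of each member (large circles, centre) and of its 3 nearest tested genes on each side, in the order of the GENCODE 29 annotation; colour gives the value and a black outline an adjusted p under 0.05. The CCN2 row is red on both sides with ENPP1 at 2.03, and the TEAD1 row holds MICAL2 at -1.97.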

How the data were processed

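CAGE of 4 UM-UC-3 samples was analysed, 2 cisplatin-resistant and 2 wild type, grouped by title. The deposited table holds CPM values to 0.01. BWA 0.5.9, hg19 and mm9 appear without a role, per the submitters' processing notes; counter, annotation and strand are not stated there, so positions of table genes are not printed.

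Log2(CPM + 1) values were tested with limma 3.58.1 under R 4.3.3, with a mean-variance trend in eBayes, leaving out 1156 genes that averaged under 1 CPM. P-values were adjusted by the Benjamini-Hochberg method across the 12587 tested genes, and 0.05 was the threshold. A count model was not used: 92.5% of low values in resistant replicate 1 were whole multiples of that column's CPM step (tolerance 0.1 step), where 95% was required; the other columns gave 100.0%. Reads quoted are CPM divided by the step, and are approximate in resistant replicate 1. On simulated data with log2 changes of -2, -1, 1 and 2, the fit recovered between 98% and 100% of changed genes. It made 18 false calls among unchanged genes. Smaller changes, like those of every member but CCN2, were not simulated. The members and lists were chosen with earlier results of these data known. Named genes are all members, the TEAD and CCN lists, up to 4 called genes per direction of each other list by adjusted p, described neighbours, and genes said to be chosen after seeing values; the neighbours and markers named singly were also chosen so. Gene order came from GENCODE 29 (99.3% of tested identifiers matched). A result for 1 further list gene under the filter is not reported here. Alternatives varied the pseudocount, filter, scaling, variance prior, replicate block and each sample left out.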

Additional observations from a re-analysis of the deposited data

How the results depend on the processing

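All 9 members kept their direction in all 13 alternatives, and 111 of 117 member values kept their side of the threshold; the exceptions were YAP1, TEAD1, LATS2 and CCN1. Leaving out each sample in turn gave between 6 and 9 called members, 4279 to 6790 called genes (2556 to 4316 higher, 1636 to 2787 lower) and 29 to 57 called pathway genes, the lowest without a resistant sample. In these fits log2 fold changes ran from 0.30 to 0.50 for YAP1, 0.30 to 0.39 for TEAD1, 0.35 to 0.55 for LATS2 and 0.087 to 0.20 for CCN1. Quantile normalization took TEAD1 to 0.21 (limma, adjusted p = 0.07645). VIM, which did not pass, changed sign under median-ratio scaling (-0.055) and ran from -0.0074 without resistant replicate 1 to 0.085 without resistant replicate 2; the cause was not tested. A lone sample in a fit is assumed to vary like the other group. A call lost in such a fit need not mean a smaller change. TEAD1 stood at 0.39 without resistant replicate 1, against 0.35 with all samples. The deviations of samples with equal numbers correlated at -0.079 across genes, so the numbers were not taken as pairs; with the replicate block 7098 genes and 8 members were called, and no member changed its call. CCN6 and WTIP lay under the filter and were not tested; with no filter the CCN list had 1 call, the STRIPAK list 9 and the YAP/TAZ signature list 11. Depth sets the width of the read intervals of such low genes.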

Other observations

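CCN6 and WTIP, which lay under the filter, are given by reads. CCN6 had 14 reads in resistant and 57 in wild type samples, a wild type over resistant ratio of 4.36 (exact 95% interval 2.40 to 8.48). WTIP, a LIM-domain protein, had 36 reads in resistant and 8 in wild type samples, a resistant over wild type ratio of 4.20 (1.92 to 10.5). These intervals cover counting error only.

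Among the mesenchymal markers, the repressors ZEB1 and ZEB2 moved in opposite directions: ZEB1 read 17.9 and 16.6 CPM in resistant samples, against 34.4 and 34.9 CPM in wild type samples, and ZEB2 read 18.7 and 17.9 CPM in resistant samples, against 6.20 and 5.40 CPM in wild type samples (limma, log2 fold changes -0.97 and 1.51, adjusted p = 5.91e-05 and 2.49e-05). N-cadherin (CDH2) read 44.4 and 39.8 CPM in resistant samples, against 20.1 and 18.5 CPM in wild type samples. All 7 mesenchymal markers matched, and their sum, mostly VIM, was 1515 and 1419 CPM in resistant samples, against 1428 and 1398 CPM in wild type samples. FN1 and TWIST1 lay under the filter. FN1 read 0.52 and 0.39 CPM in resistant samples, against 1.04 and 1.71 CPM in wild type samples. TWIST1 read at most 0.17 CPM in any sample. SNAI2 read 1.46 and 1.24 CPM in resistant samples, against 1.04 and 1.05 CPM in wild type samples, and did not pass. Of 7 fibroblast markers 2 matched, and their sum was 0.70 and 0.67 CPM in resistant samples, against 0.05 and 0.06 CPM in wild type samples. Of 9 blood markers 1, CD68, matched, at 28.0 and 29.9 CPM in resistant samples, against 71.5 and 52.2 CPM in wild type samples. None of the 5 smooth muscle or 5 endothelial markers matched a row used here.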
